A study of Mus musculus with 2 samples.

Results

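The 9 genes described here belong to the inflammasome and pyroptosis pathway and were measured in mouse myeloid-derived suppressor cells (MDSCs), taken from the 55401 gene rows of the study by their symbols. The 9 genes are the sensors Nlrp3, Aim2, Nlrc4 and Nlrp1b, the kinase gene Nek7, the adaptor Pycard, the inflammatory caspases Casp1 and Casp4 and the pore-forming gasdermin Gsdmd. Each had 1 row, and all 9 passed a mean of 1 FPKM. FPKM, the authors' level per length, is fragments per kilobase of transcript, scaled to the depth of the library. Poly(A)-selected RNA was sequenced from 2 libraries of C57BL/6 mice, 8 weeks old. Both carried floxed Mettl3 alleles, and 1 of them also carried LysM-cre, a Cre recombinase expressed from the lysozyme 2 locus of myeloid cells. Mettl3 is the methyltransferase that places N6-methyladenosine (m6A) on messenger RNA. Cells were taken by magnetic sorting from mice with MC38 colon carcinoma tumours and spent 24 h in co-culture with MC38 cells; a label of the LysM-cre sample reads MC39. Because each genotype had a single library, no test of the genotypes was possible, and every difference below is between these 2 libraries. Paired values are given in the order floxed control, then the library labelled LysM-cre.

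Inflammasomes are protein assemblies that form in the cytosol of myeloid cells after a sensor has met a microbial or danger signal. The sensor gathers the adaptor ASC, the product of Pycard, and caspase-1, which cuts the precursors of interleukin-1 beta and interleukin-18 and the protein gasdermin D. The freed end of gasdermin D makes pores in the plasma membrane, through which cytokines leave and by which the cell can die, a process called pyroptosis. Mouse Casp4 encodes the enzyme often called caspase-11, which binds bacterial lipopolysaccharide in the cytosol and cuts gasdermin D without a sensor of the NLR family. NLRP3 is known for needing a priming signal that raises its own transcript, and NEK7 for binding NLRP3 during assembly.

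The promoters of 3 of the genes are shown, since Nlrp3 and Aim2 exchanged places as the highest of the 4 sensors between the libraries and Casp4 held the most matches to a kappaB-type motif, overlapping ones counted. They come from RefSeq (GRCm38.p6, 250 bases before to 50 after the transcript start), 5′ to 3′ on the strand of the gene. Capitals mark matches on either strand to GGGNNNNNCC (a loose kappaB form) or to GAGGAAGT (a PU.1 form).
Nlrp3, chr11:59541319-59541618, plus strand: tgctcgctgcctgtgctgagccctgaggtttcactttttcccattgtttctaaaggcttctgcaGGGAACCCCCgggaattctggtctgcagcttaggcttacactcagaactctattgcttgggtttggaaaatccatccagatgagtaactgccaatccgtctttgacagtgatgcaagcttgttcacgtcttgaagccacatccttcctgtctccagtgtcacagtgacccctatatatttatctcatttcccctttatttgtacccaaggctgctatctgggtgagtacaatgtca
Aim2, chr1:173420354-173420653, plus strand: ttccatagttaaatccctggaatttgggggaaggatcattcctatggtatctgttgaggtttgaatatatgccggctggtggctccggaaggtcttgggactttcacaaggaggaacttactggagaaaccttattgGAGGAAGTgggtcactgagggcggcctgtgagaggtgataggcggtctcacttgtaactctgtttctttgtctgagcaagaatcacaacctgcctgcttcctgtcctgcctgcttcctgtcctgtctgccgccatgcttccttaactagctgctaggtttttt
Casp4, chr9:5308599-5308898, plus strand: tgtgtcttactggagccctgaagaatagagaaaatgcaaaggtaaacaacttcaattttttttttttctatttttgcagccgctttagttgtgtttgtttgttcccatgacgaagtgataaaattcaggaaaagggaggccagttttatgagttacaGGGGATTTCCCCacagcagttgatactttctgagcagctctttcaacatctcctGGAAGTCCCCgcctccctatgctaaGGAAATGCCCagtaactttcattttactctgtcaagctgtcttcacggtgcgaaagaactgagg

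RefSeq promoters were matched for 8 of the 9 genes, 11 promoters in all because some genes have 2 starts. The kappaB form was found in 6 of the 11, and in 50.8% of all 32851 promoters of this length. The windows of the 2 Casp4 starts share most of their bases and the same matches, so 1 stretch counts in 2 of the 6. Casp4 held 5 such matches, 3 of them overlapping at the same place, and Nlrp3 held 1 in each of its 2 promoters. Nek7 held 3 that do not overlap, as many separate places as in Casp4. The PU.1 form was found in 3 of the 11 (Aim2, Pycard and 1 promoter of Nlrp1b), against 3.2% of all promoters. The core of the interferon response element, GAAANNGAAA, was found in none of the 11 and in 3.44% of all. A match describes letters in a window and does not show binding.

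The libraries held 59506878 counts (floxed control) and 59393864 counts (LysM-cre). Mettl3, the targeted gene, stood at 4.16 and 3.92 FPKM, a CPM (counts scaled to the library total) ratio of 0.945 with an exact 95% interval of 0.876 to 1.02, so that its level did not separate the labels. The sources used here do not say how much of that value came from the floxed exons. The MDSC surface markers Ly6g (44.5 and 31.3 FPKM) and Ly6c2 (137 and 122) were present in both libraries. Among marker lists of cell types a bead isolation could hold, 9 of 12 neutrophil markers were lower in the library labelled LysM-cre. That list summed to 12700 and 11100 FPKM, with none at 0. Its largest difference went the other way, in Elane (11.9 and 23.6 FPKM, CPM ratio 1.98, 1.82 to 2.16). Retnlg was also higher (1.14, 1.12 to 1.16), and the interval of Mmp9 spans 1 (1.01, 0.991 to 1.03). All 8 macrophage markers were higher (2390 and 2650 FPKM), as were 5 of 8 monocyte markers (1390 and 1460). Most of that last difference was Cx3cr1, a chemokine receptor gene at 6.16 and 61.6 FPKM (CPM ratio 9.99, 9.52 to 10.5), without which the other 7 summed to 1380 and 1400 FPKM. Except for Ear1, level at 80 counts in each library, the eosinophil markers were higher (672 and 895 FPKM summed over 8). Ear2, at 572 and 728 FPKM, held most of that sum. All 7 erythroid markers that passed the minimum (989 and 1380 over 8) were higher. B and plasma cell (454 and 738 FPKM, 7 of 8 lower and Jchain higher), T and NK cell (209 and 214) and dendritic cell markers (101 and 107) had no member at 0, while the epithelial markers summed to 4.4 and 4.89 FPKM with Krt19 and Krt20 at 0 in both. In whole-library RNA, fewer cells of a type and less RNA per cell cannot be told apart, and the part of these markers in the results below was not tested.

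Among the sensors, Nlrp3 was higher and Aim2 and Nlrc4 were lower in the library labelled LysM-cre, all by modest amounts. Nlrp1b differed by less than counting error. Nlrp3 (chromosome 11, 59541568 to 59566956, plus strand, mm10; ENSMUSG00000032691) senses potassium loss and many forms of membrane damage. It stood at 14.7 FPKM in the control, on 3996 counts, against 18.8 FPKM on 5080 counts. The CPM ratio was 1.27 (95% interval 1.22 to 1.33), and the log2 ratio of FPKM + 1 was 0.33. This interval, like the others given, covers counting error only and treats reads as independent molecules, so it compares the libraries and not the genotypes. Of the 12526 genes with a mean of at least 1 FPKM, 15.5% had a larger absolute log2 ratio than Nlrp3.

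Aim2 (chromosome 1, 173350879 to 173466040, plus strand; ENSMUSG00000037860), the sensor of double-stranded DNA in the cytosol, went the other way. It stood at 18.5 and 15.9 FPKM, on 4340 and 3711 counts, a CPM ratio of 0.857 (0.820 to 0.895). Of the 4 sensors among the 9 genes, Aim2 thus had the highest level in the control and Nlrp3 in the other library; Naip2, Naip5 and Mefv, sensor genes of the pathway outside the 9, were higher than both. The ratio of the Nlrp3 level to the Aim2 level moved from 0.795 in the control to 1.18. The Aim2 row overlaps Cadm3 on the opposite strand, which held 331 and 434 counts and so differed in the opposite direction to Aim2.

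Nlrc4 (chromosome 17, 74425438 to 74459142, minus strand; ENSMUSG00000039193), which is activated when NAIP proteins bind flagellin or parts of bacterial secretion systems, stood at 5.40 and 4.76 FPKM. Its 1735 and 1526 counts gave a CPM ratio of 0.881 (0.822 to 0.945). A processed pseudogene inside the row on the same strand, Gm4708, held 27 and 60 counts, and with the counts of same-strand rows added Nlrc4 was still lower. Nlrp1b (chromosome 11, 71153102 to 71230733, minus strand; ENSMUSG00000070390), the target of anthrax lethal factor in some mouse strains, stood at 4.19 and 3.95 FPKM on 1770 and 1661 counts (0.940, 0.879 to 1.01). Its neighbour and relative Nlrp1a, 8397 bases away on the same strand, stood at 4.02 and 3.83 FPKM. Reads of such relatives could be split between rows; summed over the pair, 2890 and 2725 counts gave a ratio of 0.945 (0.896 to 0.996).

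The 4 sensors together summed to nearly the same level in both libraries, 42.9 and 43.4 FPKM. The make-up of that sum differed. Nlrp3 gave 34.4% and 43.3% of it, and Aim2 gave 43.2% and 36.6%. Nlrc4 (12.6% and 11.0%) and Nlrp1b (9.78% and 9.10%) held the smaller shares in both.

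**Figure D1:**
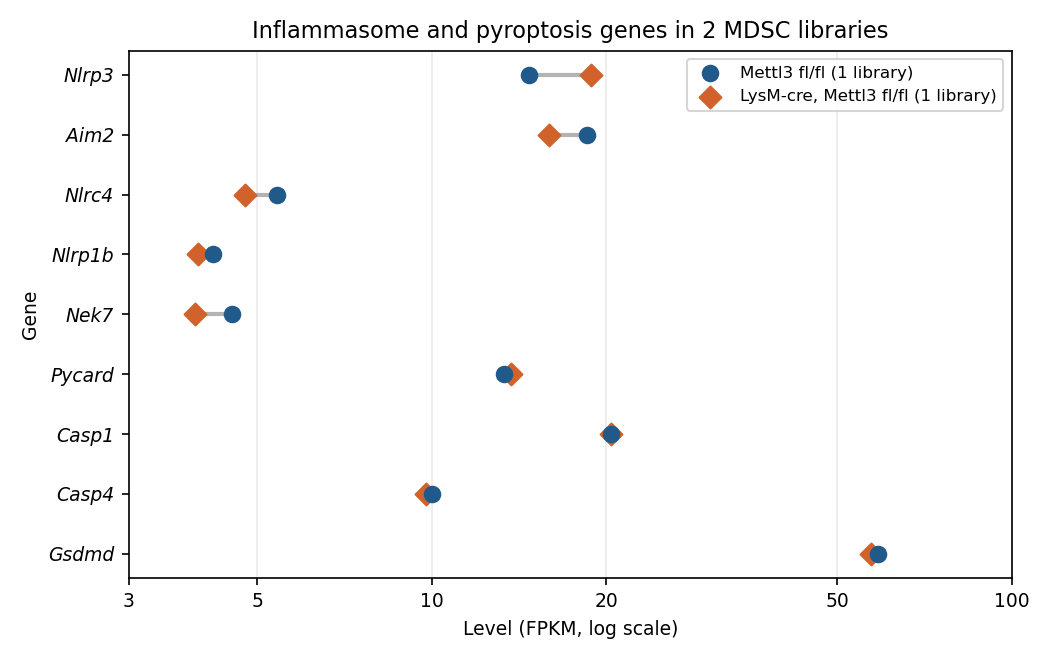
Level of each of the 9 genes in FPKM (log scale) in the floxed control library (circles) and the library labelled LysM-cre (diamonds), with a grey line joining the values of a gene. Nlrp3 lies to the right in the library labelled LysM-cre (14.7 and 18.8 FPKM) and Aim2 to the left (18.5 and 15.9), while the symbols of Casp1 coincide at 20.4.

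Of the genes for assembly, Nek7 had the lower level in the library labelled LysM-cre and Pycard differed by less than counting error. Nek7 (chromosome 1, 138482875 to 138620141, minus strand; ENSMUSG00000026393) encodes a mitotic kinase that also bridges NLRP3 subunits. It stood at 4.53 and 3.91 FPKM, on 2234 and 1924 counts (CPM ratio 0.863, 0.811 to 0.918). Nek7 and Nlrp3 therefore differed in opposite directions, and the Nlrp3 level was 3.25 times that of Nek7 in the control and 4.8 times in the other library. Pycard (chromosome 7, 127989708 to 127993867, minus strand; ENSMUSG00000030793) stood at 13.3 and 13.7 FPKM on 3382 and 3478 counts. Its ratio of 1.03 had an interval of 0.982 to 1.08, which spans 1. The row overlapping it on the other strand, Gm45205, held only 7 and 4 counts.

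Both inflammatory caspases differed by less than counting error. Casp1 (chromosome 9, 5298508 to 5307290, plus strand; ENSMUSG00000025888), the protease of the canonical pathway, stood at 20.4 FPKM in each library, on 4283 and 4266 counts (CPM ratio 0.998, 0.956 to 1.04). Of the genes kept, 98.7% had a larger absolute log2 ratio than Casp1. Casp4 (chromosome 9, 5308828 to 5336783, plus strand; ENSMUSG00000033538) begins 1537 bases after the end of the Casp1 row on the same strand. It stood at 10.0 and 9.77 FPKM, on 2486 and 2422 counts (0.976, 0.923 to 1.03). The Casp1 level was 2.04 and 2.09 times that of Casp4. Casp12, the next gene of this cluster, 8646 bases beyond Casp4, was at a low level in both libraries, 0.690 and 1.27 FPKM on 179 and 325 counts (1.82, 1.51 to 2.20). The 2 members of the cluster that are abundant thus had intervals that span 1, and the scarce one did not.

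Gsdmd (chromosome 15, 75862327 to 75867408, plus strand; ENSMUSG00000022575), the substrate of both caspases, had the highest level of the 9 genes in each library. It stood at 58.7 and 57.1 FPKM, on 9318 and 9050 counts (CPM ratio 0.973, 0.945 to 1.00). With the median ratio of all genes as the scaling, the upper end of this interval moved below 1, so whether it spans 1 depends on the scaling. The Gsdmd level was 2.87 and 2.80 times that of Casp1.

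**Figure D2:**
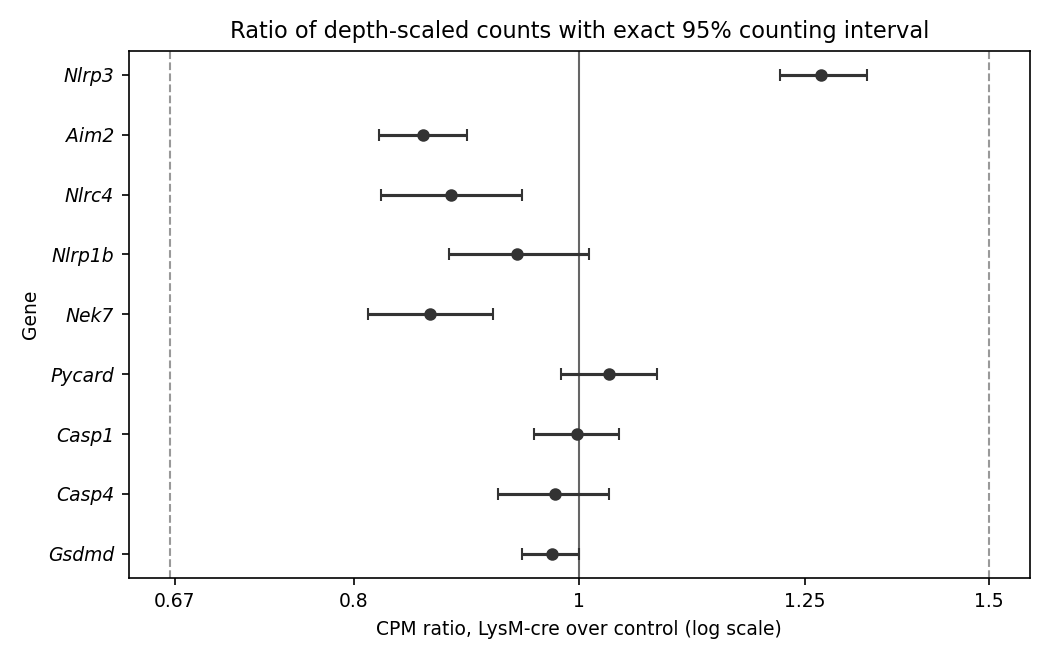
CPM ratio of each gene (LysM-cre over control, log scale) with its exact 95% counting interval as bars; the solid line marks 1 and the dashed lines 1.5-fold in either direction. Nlrp3 (1.27) lies above 1, Aim2, Nlrc4 and Nek7 (0.857 to 0.881) lie below it, and no gene reaches a dashed line.

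In order of level, Gsdmd came first and Casp1 second in both libraries, Aim2 and Nlrp3 came next in the control and in the reverse order in the library labelled LysM-cre, and Pycard, Casp4 and Nlrc4 followed in that order in both. Nek7 and Nlrp1b came last and also exchanged places, at 4.53 and 4.19 FPKM in the control and 3.91 and 3.95 in the other library. Without replicates the spread of these levels is unknown, so neighbours in the order cannot be separated.

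Read against all genes, the 9 genes did not stand out by size. None of the 9 reached 1.5-fold in FPKM + 1, and 6.47% of the 12526 genes did. The median log2 ratio of the 9 was -0.04 (7 lower and 2 higher) beside 0.00 for all genes kept, and the median absolute log2 ratio was 0.07 beside 0.11. The counting interval lay above 1 for 1 gene (Nlrp3), as it did for 30.1% of all genes kept, and below 1 for 3 genes (Aim2, Nlrc4 and Nek7), as it did for 29.7%. Together 44.4% of the 9 had an interval that leaves out 1, against 61.7% of the 5046 genes with counts in the same range (1526 to 9318). An interval that leaves out 1 was therefore common in these deep libraries. Of the genes kept, 27.4% had a larger absolute log2 ratio than Aim2, 34.2% a larger one than Nek7 and 39.0% than Nlrc4.

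**Figure D3:**
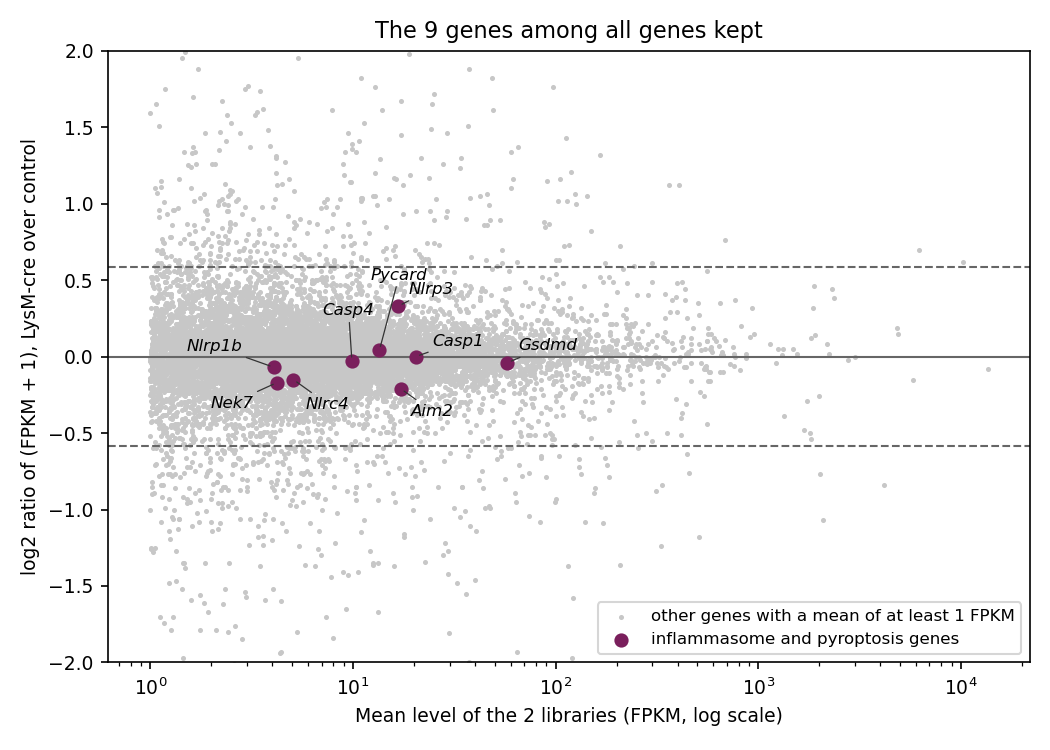
Log2 ratio of FPKM + 1 (LysM-cre over control) against the mean level of the 2 libraries (FPKM, log scale) for the genes with a mean of at least 1 FPKM, in grey, and the 9 genes, labelled; dashed lines mark 1.5-fold, and 58 genes lie beyond the vertical axis. All 9 genes lie between the dashed lines, with Nlrp3 the highest at 0.33 and Aim2 the lowest at -0.21.

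Since the floxed gene encodes an m6A writer, the transcripts were searched for GGACT, a common core of m6A sites (GGACU in RNA). No m6A was measured here, and a match is a description of the letters. The longest coding transcript in GENCODE M21 held GGACT in all 9 genes, as in 91.9% of the 10243 genes kept that have such a transcript. Nlrp3 had 8 matches, 1.99 per kilobase (percentile 88.3 of those genes), and Nlrc4 had 9, 1.9 per kilobase (percentile 86.4), beside a median of 1.05. All 8 matches of Nlrp3 lay in its coding sequence. Gsdmd, Casp1 and Casp4 had 1 match each (0.558, 0.668 and 0.697 per kilobase), also coding. Aim2 had 1.41 per kilobase (percentile 70.3), Nek7 1.14 (56.1), Pycard 1.05 (50.3) and Nlrp1b 0.484 (17.0). A match within 100 bases of the end of the coding sequence, where m6A is known to be frequent, was found in 2 of the 9 (Pycard and Nlrc4), beside 25.2% of the genes. Whether the density of GGACT bears on any difference between the libraries was not tested. Windows of 29 bases are printed for the pair of adjoining Nlrp3 matches, for the single matches of the enzyme and pore genes and for the Pycard match near the stop codon, on the strand of the gene, with GGACT in capitals.
Nlrp3, chr11:59555841-59555869, plus strand: caatgccctgggGGACTttggaatcagat
Nlrp3, chr11:59555869-59555897, plus strand: ttgctgtgtgtgGGACTgaagcacctgct
Casp1, chr9:5302446-5302474, plus strand: ggcacatttccaGGACTgactgggaccct
Casp4, chr9:5327276-5327304, plus strand: ccacgtggagaaGGACTtcattgccttct
Gsdmd, chr15:75867059-75867087, plus strand: cgtgctccttggGGACTgctgggatgaaa
Pycard, chr7:127992762-127992790, minus strand: cctgacctgcaaGGACTccctcctccagg

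The other genes of the pathway were taken from 6 lists of 75 symbols, of which 73 were matched and 66 passed a mean of 1 FPKM. Of the 66, 33 lay higher and 33 lower, and the median log2 ratio was 0.00. Only 5 reached 1.5-fold in FPKM + 1, which is 7.58% beside 6.47% of all genes kept. They were Irf1, Tlr4 and Il18bp (higher) and Naip6 and Il1rn (lower).

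Among 9 further sensors, the 6 genes that passed the minimum were all lower, with a median log2 ratio of -0.13. For Mefv (CPM ratio 0.979, 0.944 to 1.01) and Nlrp1a (0.952, 0.874 to 1.04) the counting interval spans 1. With no minimum the median of the list was -0.06. Naip1, just under the minimum at 0.709 and 1.27 FPKM, went the other way (CPM ratio 1.78, 1.53 to 2.08). Naip6, a member of the NAIP family of Nlrc4 partners, stood at 13.7 and 7.14 FPKM on 6247 and 3251 counts (CPM ratio 0.521, 0.5 to 0.544). Its relatives Naip5 and Naip2 differed less (CPM ratios 0.880 and 0.901). Naip5, which binds flagellin, stood at 26.2 and 23.1 FPKM, and Naip2, which binds a rod protein of secretion systems, at 29.4 and 26.5. The NAIP genes are related copies on chromosome 13, and reads could be split between them, so their single rows are uncertain. Nlrp12 stood at 9.37 and 8.57 FPKM, and Mefv, which encodes pyrin, at 28.0 and 27.4.

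Substrates and effectors were mixed, with 6 of 9 higher and a median of 0.06. Il1b, the interleukin-1 beta precursor cut by caspase-1, stood at 697 and 650 FPKM (0.932, 0.924 to 0.941), and Il18 at 35.0 and 36.5 (1.04, 0.984 to 1.10). Il1a, the related alarmin, stood at 7.88 and 10.9 FPKM. Ninj1, which encodes the protein that ruptures the plasma membrane after gasdermin pores have formed, stood at 25.5 and 37.8 FPKM, on 2678 and 3963 counts (1.48, 1.41 to 1.56). Ninj1 thus lay higher in the library labelled LysM-cre, beside a ratio of 0.973 for Gsdmd. The gasdermin gene Gsdme stood at 2.60 and 2.32 FPKM and the caspase gene Casp8 at 28.5 and 30.9, whereas Gsdma and Gsdmc had 0 counts in both.

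Of 27 activators, 17 lay higher and 10 lower (median 0.05). Irf1, a transcription factor of interferon responses, stood at 33.0 and 62.0 FPKM (1.87, 1.83 to 1.92). The row of Gm17334 overlaps it on the opposite strand with 1092 and 1028 counts. Tlr4, the surface receptor for lipopolysaccharide that primes Nlrp3, stood at 1.45 and 3.49 FPKM on 538 and 1294 counts (2.41, 2.18 to 2.67), and its adaptor Ticam1 at 8.43 and 10.6 FPKM. Zbp1, a sensor of Z-form nucleic acids, was lower at 40.1 and 30.6 FPKM (0.764, 0.741 to 0.788). With 1 ratio per gene, no likeness of pattern to the 9 genes can be measured.

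Of 12 inhibitors that passed the minimum, 6 were higher and 6 lower, and the antagonists of the released cytokines differed in opposite directions. Il1rn, the interleukin-1 receptor antagonist, stood at 8.92 and 5.54 FPKM (0.621, 0.587 to 0.656), and the decoy receptor gene Il1r2 at 24.1 and 18.9. Il18bp, which neutralises interleukin-18, stood at 8.40 and 14.7 FPKM (1.75, 1.64 to 1.85). Its row touches Numa1 on the opposite strand (14876 and 14493 counts), and the handling of strand is unknown. Trim30a stood at 66.5 and 58.1 FPKM.

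Necroptosis genes (1 of 4 higher, median -0.05) and genes of the membrane repair machinery that removes gasdermin pores (3 of 8 higher, median -0.03) held no gene past 1.5-fold. Mlkl, the pore-forming protein of necroptosis, stood at 5.58 and 6.29 FPKM, Ripk3 at 18.4 and 17.1, Fadd at 4.15 and 3.55 and Ripk1 at 11.2 and 11.1. Of the repair genes, Chmp2a stood at 71.8 and 60.8 FPKM, Tsg101 at 14.2 and 16.1, Pdcd6 at 15.4 and 16.8 and Vps4a at 17.6 and 16.5.

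**Figure D4:**
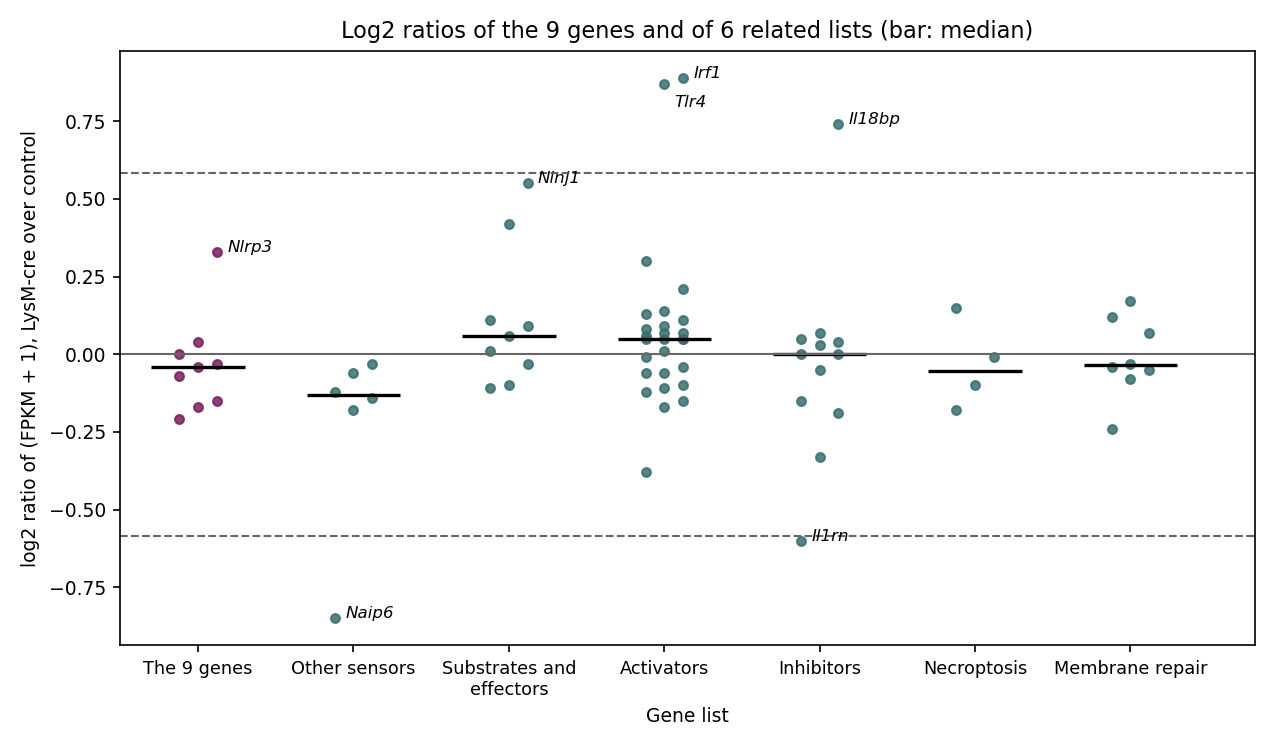
Log2 ratio of FPKM + 1 (LysM-cre over control) for the 9 genes and for the genes of 6 related lists that passed a mean of 1 FPKM; points are genes, bars are medians and dashed lines mark 1.5-fold. Naip6 and Il1rn lie below the lower line, Irf1, Tlr4 and Il18bp above the upper one, and the 9 genes lie inside.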

How the data were processed

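The data are 2 libraries, 1 per genotype, grouped by the genotype label; replicates are mentioned in the design text, but a single sample of each genotype was given. Per the file headers, the deposited table pairs a raw count with an FPKM for every gene and library. The counts as deposited are whole and not normalized. The FPKM values are the authors' own scaling for length and depth, and 0.0001 FPKM at a count of 0 was read as 0. Per the submitters' processing notes, the tools were HISAT2 2.0.4, cutadapt 1.9, DESeq2, edgeR and StringTie 1.3.4d, and the build was mm10. The sources used here do not give their roles, or how strand and multi-mapping reads were handled. Second strands were marked with dUTP, per the labels' protocols. The 8 columns of 4 libraries that match no sample label were not used.

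The log2 ratio was taken on the FPKM + 1 scale (LysM-cre over control), where low genes appear to differ less than they do. Genes with a mean of at least 1 FPKM were kept (12526), and 1.5-fold was the size counted, as no test is possible without replicates. CPM ratios carry exact (Clopper-Pearson) 95% intervals. They were tested on simulated counts that held counting error only, which is what the interval assumes. That simulation could not show how they behave with duplicate reads or with the spread between mice. At these depths the interval of a gene with 1526 to 1735 counts (Nlrc4) ran from 0.822 to 0.945. Named genes are the 9, Mettl3, the 4 kept genes with the largest absolute ratio in each list, and neighbouring or overlapping rows; other names (Il1b, Il18, Mefv, Gsdma, Gsdmc, and the markers) were chosen after their values were seen. The 9 genes, the lists and the rules were chosen with earlier results of these data known, and the motif searches and the sequences shown were chosen after the values were seen. All 9 gene identifiers were found in GENCODE M21 (GRCm38), 8 with the same start and end. Printed gene coordinates are the deposited ones. Alternatives were other pseudocounts, scalings, minimums, thresholds and sums over overlapping rows. The software was scipy 1.17.1 and pandas 2.3.3 under Python 3.11.15, matplotlib 3.10.9, and edgeR 4.0.16 (TMM factors only) under R 4.3.3.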

Additional observations from a re-analysis of the deposited data

How the results depend on the processing

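No paired analysis was possible because each genotype had 1 library, and for the same reason no library could be left out. Across 9 other scalings or row definitions, the 9 genes kept their directions (2 higher and 7 lower), with log2 ratios from 0.27 to 0.35 for Nlrp3, -0.24 to -0.16 for Aim2, -0.21 to -0.10 for Nek7 and -0.19 to -0.09 for Nlrc4. A changed pseudocount cannot reverse a ratio, and a scaling moves every gene by the same factor, so these directions were largely fixed beforehand. For 5 of the 9 genes the counting interval spans 1, which leaves their direction unresolved. The value of 0.27 for Nlrp3 came from a pseudocount of 5 FPKM, as did a count of 2 pathway genes past 1.5-fold in place of 5, since a larger pseudocount shrinks every ratio. No share of all genes is given for that pseudocount, so the count of 2 cannot be read against it. None of the 9 genes was past 1.5-fold under these alternatives or at a threshold of 2-fold, and 1 (Nlrp3) was past the lowest threshold tried, which it only just reached. No share of all genes is given for these alternatives or for the other thresholds, so these counts cannot be read against it. Under alternatives chosen after seeing the data, the number of the 9 genes whose counting interval leaves out 1 was 4 or 5. For that number too, the share of all genes is given only for the main scaling. Of 81 log2 ratios of the 9 genes under other scalings or row definitions, 1 moved by more than the gene's counting error, that of Nlrp3 above. List medians have no counting interval, so they were held to the median half-width of the 9 genes' intervals, 0.07 on the log2 scale; 1 of 42 moved further, the median of the further sensors, -0.06 with no minimum in place of -0.13. The depth limits a ratio by counting error only, and the spread between mice is unknown.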

Other observations

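The NAIP genes, whose products bring bacterial ligands to Nlrc4, lie together on the minus strand of chromosome 13. Naip1, the gene with the lowest level of the 4 listed, rested on 263 counts in the floxed control and 468 for LysM-cre, opposite in direction to Naip6. Summed over these 4 related genes, 25150 and 20297 counts gave a ratio of 0.809 (0.794 to 0.824), and that of Nlrc4 was 0.881 (0.822 to 0.945). The largest difference within the sum was that of Naip6 (6247 and 3251 counts), whereas Naip5 and Naip2 had ratios of 0.880 and 0.901. The guanylate-binding protein genes that open bacterial vacuoles to the caspase-11 pathway lay slightly lower, with Gbp2 at 55.6 and 51.2 FPKM, Gbp3 at 24.6 and 22.8 and Gbp5 at 7.94 and 7.56. The potassium-releasing receptor gene P2rx7 (9.95 and 10.4 FPKM) and Txnip, which encodes a protein that binds NLRP3 (273 and 282 FPKM), lay slightly higher. These genes of the lists were named after their values were seen.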
